A study of Mus musculus with 32 samples.

Results

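The replication-dependent histone genes of the mouse encode the core histones H2A, H2B, H3 and H4 and the linker histone H1. They were taken as every gene whose symbol reads H1f1 to H1f5, or H2ac, H2bc, H3c or H4c followed by a number, in all 5 of the authors' deposited tables. This gave 64 genes of the 55289 named ones, with 5 for H1, 18 for H2A, 17 for H2B, 12 for H3 and 12 for H4. By symbol, 63 of them matched RefSeq, which places 53 on chromosome 13 and 10 on chromosome 3. The gene H2bc24 was not matched.

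The study compared male mice deficient in Ftsj1, named Ftsj1_DF, with wild-type males, named WT, all aged 4 months and kept without special treatment. Ftsj1 encodes an enzyme that methylates the ribose of tRNA. The 32 libraries came from 14 mice, several of them brothers: brain, heart, kidney and liver from the same 6 mice with 3 libraries per genotype, and spleen from 8 others with 4 per genotype. How the gene was inactivated, and the strain, are not given in the sources used here.

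Each library is a degradome: poly(A) RNA without a cap was ligated to an adapter at its 5′ end, copied from a primer that binds poly(A), and cut into short tags. A tag therefore marks an end left by decapping or cleavage and is not a measure of the intact mRNA. The values used are the authors' mean normalized count over all libraries of an organ and their log2 fold change with its standard error. Values per library were not analysed here, so no spread between mice can be shown beyond that standard error, and the depth of each library is unknown. The direction of the fold change is not stated, and positive values are read as higher in Ftsj1_DF because Ftsj1 is negative in all 5 tables. A gene is said to pass where its adjusted p in the authors' DESeq2 table is under 0.05. Ftsj1 passed in 3 of the authors' deposited tables, with log2 fold changes of -2.84 ± 0.38 (brain-named), -3.38 ± 0.59 (liver-named) and -3.17 ± 0.77 (spleen), and not in heart or kidney.

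The organ names of 2 tables went against their markers. Across 10 neuron markers the median mean count was 18311 (liver-named) against 139.3 (brain-named). For 9 hepatocyte markers it was 1192 (liver-named) against 293311 (brain-named). These 2 tables keep their deposited names below, and a statement about either one says nothing firm about the organ it is named for. Markers of cardiomyocytes, kidney tubule and B cells were highest in heart, kidney and spleen. The spleen table also held pancreatic acinar markers, with a median of 158458.

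Replication-dependent histone genes are transcribed in bursts during S phase, when new DNA needs new nucleosomes. Their mRNAs are unusual in ending in a conserved stem-loop, bound by the protein Slbp, in place of a poly(A) tail. When DNA synthesis stops, these mRNAs gain a short oligouridine tail and are degraded. A library selected on poly(A) sees them only where a polyadenylated form exists or where the primer binds elsewhere, and some of these genes are known to make such forms in cells that no longer divide. Many members are near-identical copies. How tags that match several copies were counted is not given in the sources used here, so the value of a single member is uncertain and members are not independent of each other.

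Many H2A and H2B genes stand head to head, so that both are transcribed from the short stretch between them. RefSeq puts 13 H2A genes within 1000 bases of an H2B gene. The bases between the annotated genes of 4 pairs are printed here, because the results below turn on how differently the genes on either side of them were measured. The 250 bases before the start of H1f3 and H3c8 follow, because these were the only members to pass the authors' test. All are RefSeq sequence of GRCm38.p6, while the study used GRCm39, and are read 5′ to 3′ toward the H2A gene or the named start. Capitals mark the motifs searched.
H2ac23 and H2bc23, chr13:21810200-21810366, + strand: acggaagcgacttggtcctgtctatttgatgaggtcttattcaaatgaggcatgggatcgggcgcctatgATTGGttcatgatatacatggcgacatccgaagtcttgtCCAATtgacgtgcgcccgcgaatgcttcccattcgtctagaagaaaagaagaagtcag
H2ac6 and H2bc4, chr13:23683960-23684198, - strand: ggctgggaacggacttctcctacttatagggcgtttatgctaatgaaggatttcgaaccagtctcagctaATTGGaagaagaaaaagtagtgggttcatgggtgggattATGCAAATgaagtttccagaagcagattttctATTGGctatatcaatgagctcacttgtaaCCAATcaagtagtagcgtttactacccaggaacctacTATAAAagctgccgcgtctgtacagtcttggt
H2ac11 and H2bc11, chr13:22042950-22043197, - strand: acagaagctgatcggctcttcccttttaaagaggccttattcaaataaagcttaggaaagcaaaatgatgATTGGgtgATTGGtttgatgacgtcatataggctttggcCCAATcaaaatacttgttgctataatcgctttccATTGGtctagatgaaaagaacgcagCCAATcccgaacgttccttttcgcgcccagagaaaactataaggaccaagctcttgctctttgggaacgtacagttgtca
H2ac20 and H2bc21, chr3:96220881-96221071, - strand: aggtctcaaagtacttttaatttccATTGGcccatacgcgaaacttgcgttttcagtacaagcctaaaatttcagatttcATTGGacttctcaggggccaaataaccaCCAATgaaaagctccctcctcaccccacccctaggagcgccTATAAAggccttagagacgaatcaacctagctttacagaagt
H1f3, chr13:23554782-23555031, + strand: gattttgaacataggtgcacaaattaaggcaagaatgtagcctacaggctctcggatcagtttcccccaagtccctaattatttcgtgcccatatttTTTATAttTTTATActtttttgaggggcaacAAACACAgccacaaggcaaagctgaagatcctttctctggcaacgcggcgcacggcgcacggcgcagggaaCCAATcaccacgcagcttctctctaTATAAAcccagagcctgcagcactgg
H3c8, chr13:23535168-23535417, + strand: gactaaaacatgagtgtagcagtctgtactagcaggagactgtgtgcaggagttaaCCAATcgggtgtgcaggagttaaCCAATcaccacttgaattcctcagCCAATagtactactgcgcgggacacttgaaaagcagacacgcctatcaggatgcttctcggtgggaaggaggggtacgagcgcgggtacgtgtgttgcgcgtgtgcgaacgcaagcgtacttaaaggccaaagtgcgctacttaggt

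The capitals mark 4 motifs, each searched on both strands: the octamer ATTTGCAT, a site of the factor Oct-1 (Pou2f1) known from H2B promoters; CCAAT, the box bound by NF-Y; TATAAA, the TATA box; and AAACACA, an element known from H1 promoters. RefSeq promoter windows of 300 bases, from 250 before to 50 after the start, were found for 57 members. The octamer was in 12 of these 57 (21.1%) against 1.74% of all 32851 windows, with 6 of 17 H2A and 6 of 14 H2B windows and none of the others. CCAAT was in 49 of the 57 windows (86.0%, against 37.4% of all windows): every H1, H2A, H2B and H3 window held it, and 3 of 11 H4 windows. TATAAA was in 34 windows (59.6%, against 13.6% of all). The H1 element was in 8 windows (14.0%, against 7.18% of all), among them 4 of the 5 H1 genes. No motif contains another, and a match is a description of the window, not evidence of binding. Of the 11 stretches between neighbours of at most 250 bases, 11 held CCAAT, 4 TATAAA and 4 the octamer, which is seen above in the stretch between H2ac6 and H2bc4.

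Histone tags were few in every organ, and which histone they came from differed between tables. In the authors' deposited tables the 64 genes together took 139.4 ppm of the brain-named sum, 141.4 ppm of the heart, 279.2 ppm of the kidney, 81.1 ppm of the liver-named and 399.3 ppm of the spleen sum, where 1 ppm is 1 of every 1000000 tags counted in genes. Spleen was highest and liver-named lowest under 2 other scalings as well, but by median ratios the brain-named sum of 226.3 lay above the kidney sum of 195.9. H2B genes supplied 80.5%, 72.1%, 82.4% and 58.8% of histone tags in the brain-named, heart, kidney and liver-named tables. In spleen they supplied 9.15%, and H2A genes 87.6%. H2A had supplied 9.91% (kidney) to 31.7% (liver-named) elsewhere. The linker histone H1 took 2.14% to 8.09% of histone tags, H3 0.105% to 1.68% and H4 0.151% to 0.838%. Every nucleosome holds the 4 core histones in equal number, so these shares do not follow the proteins' proportions.

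**Figure D1:**
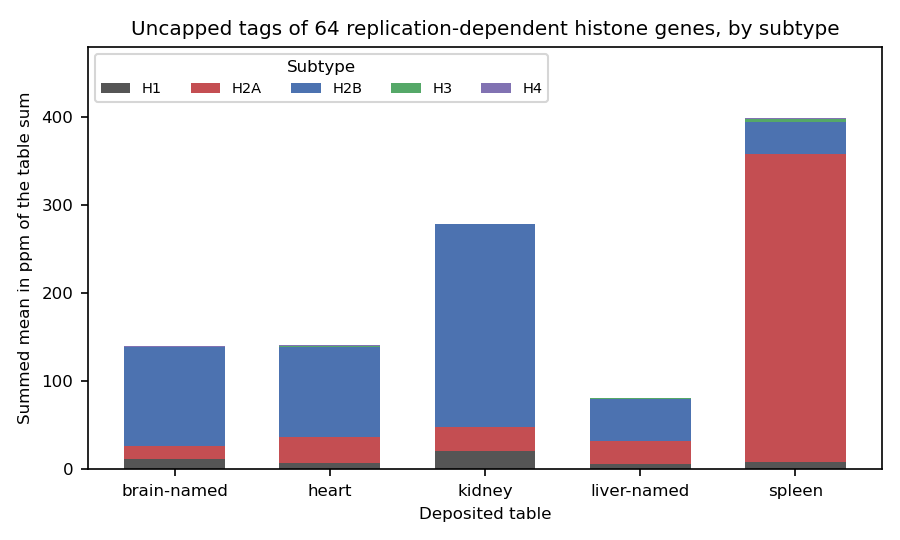
Summed mean normalized count of the 64 histone genes in ppm of each table's sum (y axis) in the 5 deposited tables (x axis), with bar segments for H1, H2A, H2B, H3 and H4. H2B makes up most of the bar in 4 tables, and H2A makes up 87.6% of the spleen bar.

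Not every member was seen. In the authors' deposited tables, 6 genes were listed at 0 in all 5 tables: H2ac18, H2ac19, H2bc18, H3c13, H3c14 and H4c2. A listed 0 is not proof of absence, since Ms4a1, a gene of B cells, is also listed at 0 in spleen. A count in all 5 tables was listed for 37 genes. A mean of 20 or more, the level used below for comparing tables, was reached in at least 1 table by 38 genes and in all 5 by 14, of which 8 encode H2B and 5 H2A. The other 26 genes stayed below 20 in every table, among them 7 of 12 H3 and 9 of 12 H4 genes.

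A single gene, H2bc4, gave most of the H2B tags in each table but spleen. In the authors' deposited tables its mean was 6794 (brain-named), 2958 (heart), 7397 (kidney), 1798 (liver-named) and, for the spleen, 851. That is 66.4%, 41.5%, 54.6% and 32.5% of all histone tags in the first 4, where no member had a higher mean, and 4.37% in spleen. Without H2bc4 the histone sum would be 46.9 ppm in place of 139.4 in the brain-named table, 82.8 in place of 141.4 in heart and 126.8 in place of 279.2 in kidney. The further H2B genes with high counts were H2bc9, with means of 663, 1047, 1555, 346 and 258 in the same order, and H2bc6, with 299, 577, 1190, 583 and 207.

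RefSeq models set H2bc4 apart from the typical histone gene, which has no intron and a short span. Of the 63 matched members, 5 had a model spanning more than 1000 bases, and all 5 were H2B genes: H2bc4 with 8282 bases, H2bc6 with 37455, H2bc21 with 2667, H2bc22 with 14079 and H2bc23 with 3788. The other 58 spanned 360 to 911 bases. No other member lies within the long models. These 5 genes held 71.2%, 51.4%, 65.5% and 48.7% of all histone tags in the brain-named, heart, kidney and liver-named tables and 6.04% in spleen. As a share of H2B tags alone they held 66.0% in spleen and 71.3% to 88.4% in the other tables. Most of this was H2bc4, which alone held 66.4%, 41.5%, 54.6%, 32.5% and 4.37% of all histone tags in table order. H2bc22 had a mean of at most 8.18 in any table, while H2bc9, with a span of 522 bases, had 1555 in kidney. A long model thus did not go with a high count in each gene. The models are of GRCm38.p6, whose annotation may differ from the one the authors counted with. Counts were not divided by length, and a span on the chromosome is not the length of a transcript. Any part of length in these shares was not tested.

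Spleen stood apart through H2A. Levels were compared as the mean in ppm of each table's sum, and a gene's spleen ratio is its level in spleen over its highest level in any other table. All 14 H2A genes on chromosome 13 were highest in spleen, and for the 12 with a mean of at least 20 in a table the ratio ran from 4.30 (H2ac7) to 78.7 (H2ac11), with a median of 21.2. Outside spleen H2ac11 had a mean of at most 2.48, so its ratio divides by a value near 0. H2ac23, the member with the highest spleen mean, was listed in the authors' deposited tables at 44.3 in brain-named, 83.7 in heart, 126 in kidney, 360 in liver-named and 5631 in spleen. For H2ac24 the authors' deposited tables gave 45.0, 112, 42.0, 370 and 3827. H2ac6 had 41.2, 131, 127, 218 and 2928, and H2ac15 had 29.5, 74.3, 77.2, 99.2 and 2084 in the authors' deposited tables. These 4 genes and H2bc4 were the 5 members with the highest means in spleen.

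H2ac20, an H2A gene on chromosome 3, did not peak in spleen. Its means in the authors' deposited tables were 886, 1041, 919, 638 and 388 in the same order. Its spleen ratio was 0.386. It was among the 5 members with the highest means in each table but spleen, where H2A genes of chromosome 13 were above it.

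Most H2B genes did not peak in spleen either. Of 13 with a mean of at least 20 in a table, only H2bc11 was highest in spleen, with a ratio of 1.23. The median ratio of the 13 was 0.267, and H2bc12 was listed at 0 in spleen. The filter admits a gene through its highest table alone, and the tables were normalized separately with spleen from other mice, so these ratios are descriptions without a test. Under both other scalings tried, 12 of 12 chromosome 13 H2A genes and 1 of 13 H2B genes were above 1. Some of the 12, among them H2ac7 and H2ac11, reached 20 in spleen alone, so a ratio above 1 says little for them. The 4 that reached 20 in all 5 tables were H2ac6, H2ac15, H2ac23 and H2ac24, with ratios of 18.8, 26.9, 21.9 and 14.5. Of the 8 H2B genes that did so, only H2bc11 was above 1.

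**Figure D2:**
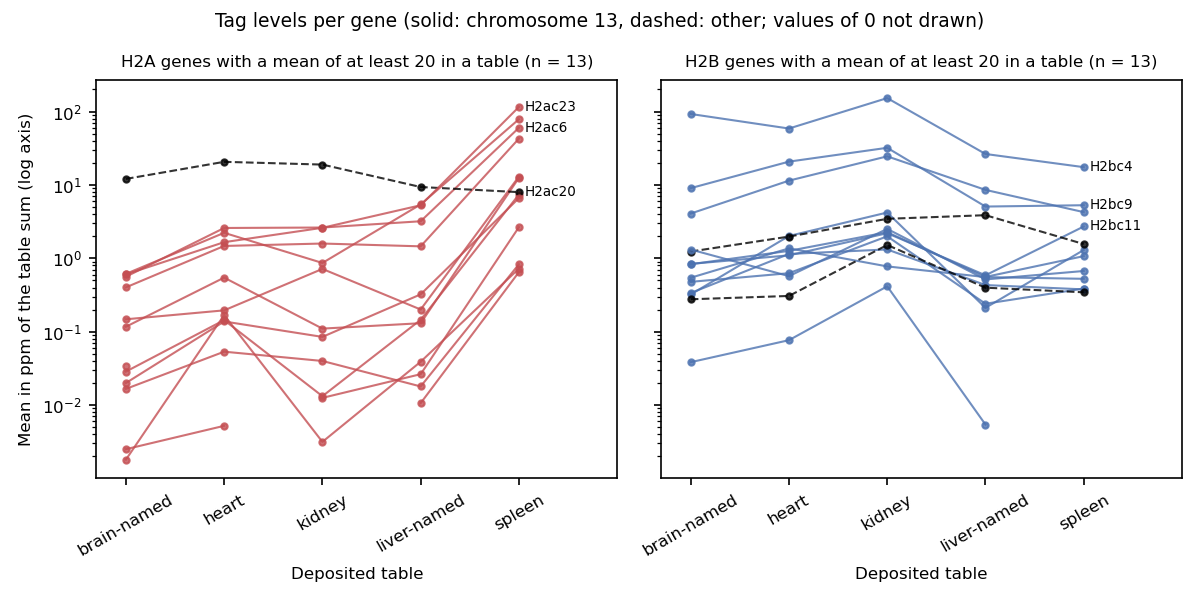
Mean normalized count in ppm of each table's sum (log y axis) for 13 H2A genes (left) and 13 H2B genes (right) with a mean of at least 20 in a table, across the 5 deposited tables (x axis). Each line is a gene, solid where RefSeq places it on chromosome 13. The 12 solid H2A lines peak in spleen, while H2ac20 and 12 of the 13 H2B lines do not.

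The contrast held between neighbours. For 7 pairs a spleen ratio could be given for both genes. In 6 of these the H2A gene had the higher ratio and was highest in spleen, while its H2B neighbour was highest in spleen in 1. H2ac6 and H2bc4, which share the stretch printed above with an octamer, 3 CCAAT boxes and a TATA box, had ratios of 18.8 and 0.115. H2ac23 and H2bc23 had 21.9 and 0.267 across a stretch of 167 bases. H2ac11 and H2bc11 had 78.7 and 1.23, the one pair with both above 1. H2ac20 and H2bc21 on chromosome 3 had 0.386 and 0.404, close to each other and both below 1. So genes with one stretch of DNA between their starts could have spleen ratios far apart or close together. Close ratios did not mean a shared peak, since H2ac20 was highest in heart and H2bc21 in liver-named.

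**Figure D3:**
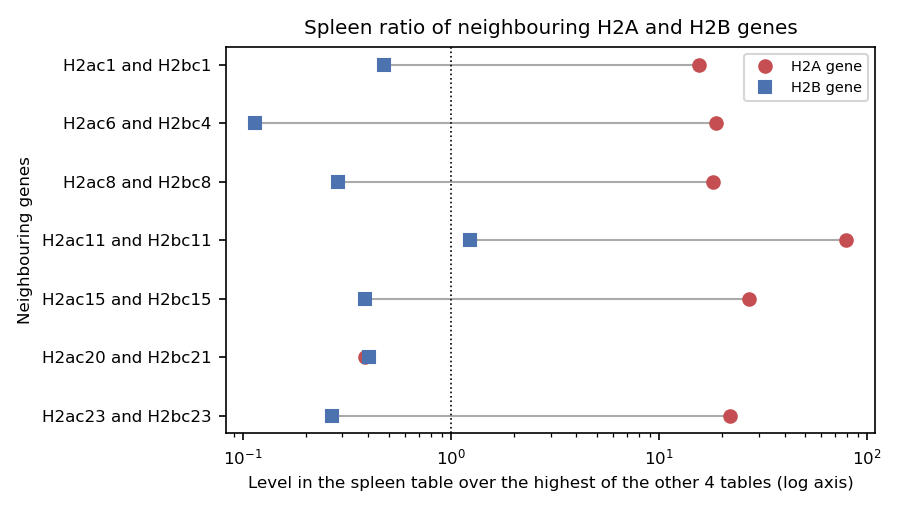
Level in spleen over the highest level in the other 4 tables (log x axis) for the 7 neighbouring pairs of H2A (circles) and H2B (squares) genes with a mean of at least 20 in a table for both (y axis). The dotted line is a ratio of 1; 6 of 7 circles lie right of it and 1 of 7 squares.

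Among the remaining histones with a mean of at least 20 in a table, spleen was highest for H1f5 (ratio 20.9), H3c8 (65.0), H3c10 (2.46), H4c9 (4.42) and H4c14 (1.62). These ratios pool both genotypes. For H3c8 the authors' deposited values imply a spleen mean of 0.953 in WT and 117 in deficient mice, so its ratio rests mostly on deficient libraries. For H3c10 the implied WT mean was 8.31 in spleen and 23.9 in heart, with no p in either. For H4c14 it was 12.7 in spleen and 24.5 in liver-named. By these implied means, neither H3c10 nor H4c14 was highest in spleen in WT. H1f5, a linker histone of dividing cells, had a mean of 130 in spleen and at most 8.73 elsewhere in the authors' deposited tables. H1f2, among the 5 highest means of 3 tables, had means of 771, 165, 809, 314 and 171 in table order in the authors' deposited tables. Of all 23352 genes with a mean of at least 20 in a table, 19.7% were highest in spleen, the median spleen ratio was 0.339 and 2.54% had a ratio over 10. Of the 38 histone genes, 18 (47.4%) were highest in spleen and 34.2% had a ratio over 10. Some of the 18, among them H1f5, H3c8, H3c10 and H4c9, reached a mean of 20 in spleen alone. They were counted because of the table where they are high. The 18 also include H3c8, H3c10 and H4c14, whose WT values are given above, so these shares are a description without a test.

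Other genes tied to DNA replication were also frequent in spleen. Of 39 S phase and proliferation genes, such as Mcm6, a subunit of the replicative helicase, and Cdk1, the kinase that drives mitosis, 33 were highest in spleen, with a median ratio of 3.58 and 23.1% over 10. Their summed level was 1620 ppm in spleen against 173 in brain-named, 181 in heart, 530 in kidney and 256 in liver-named. Factors that make, process or degrade histone mRNA were highest in spleen in 20 of 46 cases, with a median ratio of 0.820. Pou2f1, which encodes Oct-1, had a mean of 8384 in spleen and 210 to 475 elsewhere in the authors' deposited tables. Slbp, the stem-loop binding protein, had 909 in brain-named, 382 in heart, 1370 in kidney, 3052 in liver-named and 2144 in spleen in the authors' deposited tables. Replication-independent histone genes, whose mRNAs carry poly(A) and are made throughout the cell cycle, were highest in spleen in 3 of 12 cases. In the authors' deposited tables H2aj, a variant of H2A, had 19505 in kidney and 4595 to 8921 elsewhere. In bulk tissue, more dividing cells and more tags per cell cannot be told apart. Markers of blood cells were also highest in spleen. The median mean count of 8 B cell markers was 4737 there and at most 122 elsewhere, that of 6 T cell markers 2785 against at most 97.3, and that of 7 erythroid markers 441467 against at most 60346. Ms4a1 of the B cell list and Alas2 of the erythroid list were listed at 0 in every table. Their part in the histone levels was not tested.

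The loss of Ftsj1 was then compared with wild type in each organ, which asks whether histone RNA ends change with the enzyme. Few members passed: 2 of 138 tests over the 5 tables, both higher in deficient mice. By the authors' DESeq2 Wald test with Benjamini-Hochberg adjustment under 0.05, none of 21 tested members passed in the brain-named table, where 0.414% of all tested genes did. In heart 1 of 28 passed (1.19% of all tested genes), in kidney 0 of 23 (2.07%), in liver-named 0 of 26 (0.203%) and in spleen 1 of 40 (0.217%). At an unadjusted p under 0.05 by the same DESeq2 test, 10 of 51 members with a p were counted in the brain-named table, all higher (of all genes, 6.82% were counted either way and 4.90% as higher). The counts were 4 higher and 1 lower of 50 in heart (all genes: 6.73%, higher 3.03%), 3 higher of 43 in kidney (7.74%, higher 4.08%), 1 lower of 54 in liver-named (7.33%, higher 3.08%) and 3 higher of 49 in spleen (4.22%, higher 1.84%). With near-identical copies these counts hold fewer independent measurements than genes.

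Among H1 genes, H1f3 rose in heart. H1f3 encodes a linker histone, which binds the DNA entering and leaving a nucleosome, and its upstream stretch above holds the H1 element, a CCAAT box and TATA boxes. Its mean in the authors' deposited heart table was 160, which with the fold change implies about 93.1 in WT and 227 in deficient mice. The log2 fold change was 1.29 ± 0.33 (standard error; 3 against 3 mice), a fold of 2.44 with a 95% interval of 1.56 to 3.81, and the adjusted p was 0.0158 by the authors' deposited DESeq2 test. In the other authors' deposited tables it was 0.37 ± 0.97 in brain-named, 4.14 ± 1.51 in kidney (adjusted p = 0.146, DESeq2), 1.21 ± 0.84 in liver-named and 2.18 ± 1.20 in spleen. All 5 values were positive and only heart passed. The call was lost, with an adjusted p of 0.152, when the DESeq2 statistic was rescaled to the spread of genes with a mean of at least 20. Over all alternatives the adjusted p ran from 0.00118 to 0.152.

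H1f2, with a higher mean than H1f3 in every table, had log2 fold changes of -0.04 ± 0.45, 0.62 ± 0.49, 0.41 ± 0.30, -0.77 ± 0.66 and -1.22 ± 0.89 in the authors' deposited tables, in the order brain-named, heart, kidney, liver-named, spleen. None passed, and their signs were mixed. H1f4 was 4.36 ± 2.06 in kidney (adjusted p = 0.355) and H1f1 6.01 ± 3.10 in liver-named from a mean of 5.74 in the authors' deposited tables (DESeq2), so large values came with large errors. H1f1 and H1f4 had tags in spleen without a p.

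Among H2A genes none passed. H2ac20 came nearest, at 1.28 ± 0.42 in the authors' deposited brain-named table (adjusted p = 0.133, DESeq2). Elsewhere the authors' deposited tables gave it -0.40 ± 0.41 in heart, -1.41 ± 1.01 in kidney, 0.60 ± 0.54 in liver-named and 0.63 ± 0.70 in spleen. The signs differed between tables from the same mice. In spleen, where H2A tags were frequent, the authors' deposited values were much alike: H2ac23 0.85 ± 0.87, H2ac24 0.94 ± 0.90, H2ac6 0.92 ± 1.00 and H2ac15 0.87 ± 1.00. Of the 16 H2A genes with a p there, 14 were positive, with a median of 0.89, against a median of -0.07 over all genes, and the smallest adjusted p was 0.981 (DESeq2). These copies may share tags, so 14 like signs are not 14 measurements. S phase genes in the authors' deposited spleen table were positive in 30 of 39 cases with a median of 0.38. None passed by DESeq2, and 2 had an unadjusted p under 0.05, against 4.22% of all genes. The part of cell makeup in either shift was not tested. H2ac22 was 2.50 ± 1.40 in liver-named and 1.10 ± 1.00 in spleen in the authors' deposited tables.

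Among H2B genes none passed either. In the brain-named table, 13 of 16 H2B genes with a p were positive, with a median log2 fold change of 1.25 against 0.00 over all genes. Of the 16, 9 had an unadjusted p under 0.05 by DESeq2, against 6.82% of all genes. Of the 12 with a mean of at least 20, 11 were positive with a median of 1.32. H2bc4 was 1.25 ± 0.47 (adjusted p = 0.229, DESeq2) in that authors' deposited table. H2bc9 was 1.13 ± 0.43 (adjusted p = 0.229), H2bc6 1.83 ± 0.64 (adjusted p = 0.171) and H2bc15 2.13 ± 0.73 (adjusted p = 0.159) in the same authors' deposited DESeq2 table. Each of these lay more than 2 standard errors above 0, and none passed over the whole table. S phase genes in that table were positive in 15 of 39 cases, with a median of -0.24.

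**Figure D4:**
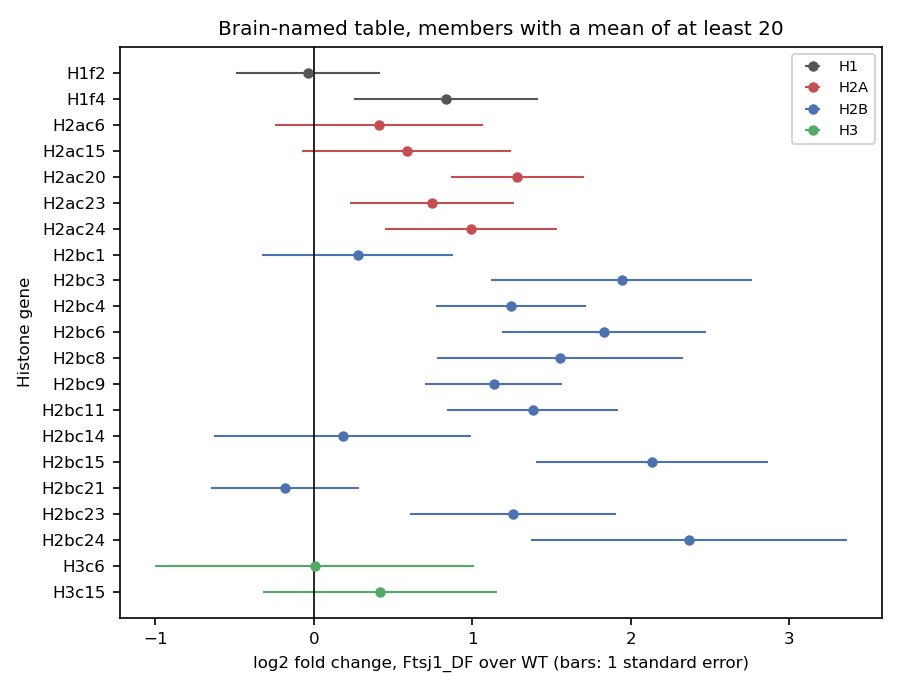
Authors' deposited log2 fold change, Ftsj1_DF over WT (x axis), of the 21 histone genes with a mean of at least 20 in the brain-named table (y axis), with bars of 1 standard error and colours for the subtype. Of the 21 points 19 lie right of 0, and none passed an adjusted p of 0.05.

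Elsewhere the count of positive H2B genes varied. In the authors' deposited tables it was 12 of 15 with a p in spleen (median 0.83), 11 of 16 in heart (0.28), 10 of 16 in liver-named (0.42) and 4 of 15 in kidney (-0.27). In the authors' deposited kidney table H2bc6 was -1.07 ± 0.66, H2bc9 -0.76 ± 0.45 and H2bc4 0.08 ± 0.33. In heart, liver-named and spleen, the authors' deposited tables gave H2bc4 values of 0.52 ± 0.36, 0.35 ± 0.40 and -0.08 ± 0.61. H2bc23 was -2.43 ± 0.89 in heart (adjusted p = 0.184, DESeq2) and 1.26 ± 0.65 in brain-named in the authors' deposited tables. H2bc24 was -2.76 ± 1.10 in liver-named (adjusted p = 0.307, DESeq2) and 2.37 ± 1.00 in brain-named in the authors' deposited tables. H2bc22 was 4.50 ± 1.62 in spleen from a mean of 7.75 (adjusted p = 0.402, DESeq2) in the authors' deposited table. H2bc21, with a mean of 168 in kidney, was given no p there in the authors' deposited table.

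**Figure D5:**
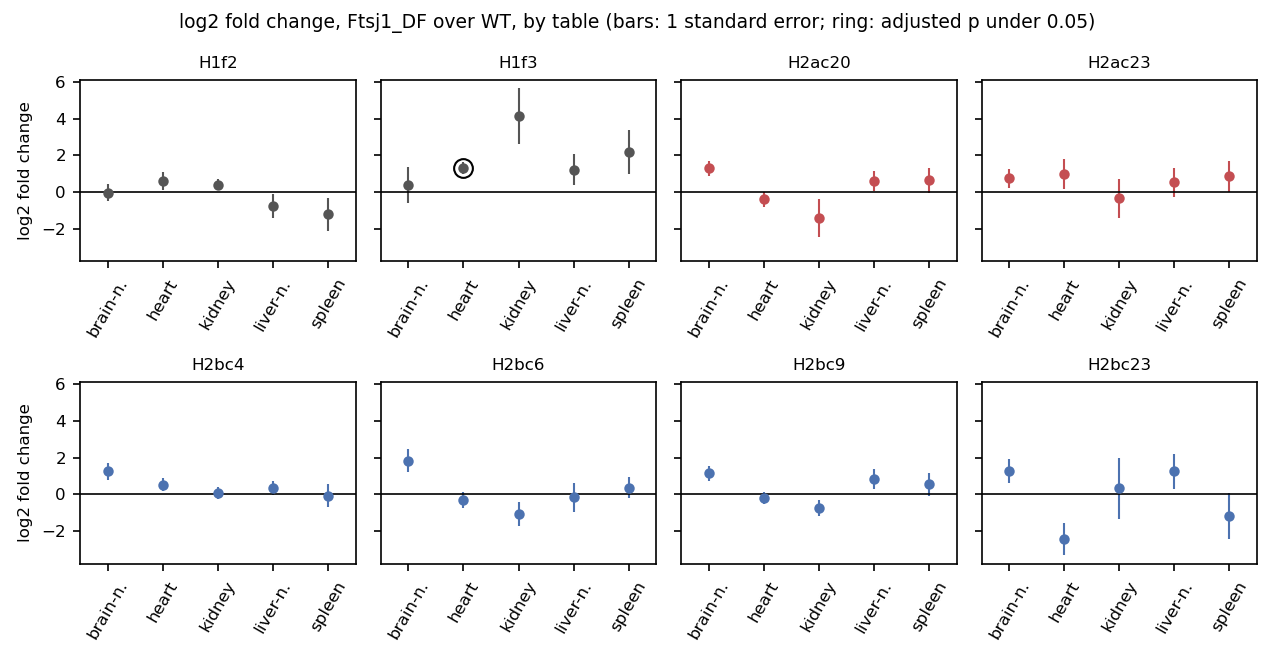
Authors' deposited log2 fold change, Ftsj1_DF over WT (y axis), of 8 histone genes in the 5 tables (x axis, where -n. stands for -named), with bars of 1 standard error. The ring marks the one value shown with an adjusted p under 0.05, H1f3 in heart.

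Whether a gene's change differed between organs was tested by a z from both standard errors, adjusted by Benjamini-Hochberg over all genes with a p in both tables. No member passed in any of the 10 pairs of tables, where 0% to 0.653% of all genes passed. Of the 37 to 50 members per pair, 0 to 8 had an unadjusted p under 0.05 by this z test. Of all genes, 3.79% to 8.32% per pair did so. The largest count, 8 of 41 members, was between the brain-named and kidney tables, where 8.32% of all genes did so and 0.653% passed. There H2bc6 differed by 2.90 ± 0.92 (adjusted p = 0.124) and H2bc9 by 1.89 ± 0.62 (adjusted p = 0.146) by this z test. For H2bc23 the brain-named value was above the heart value by 3.69 ± 1.10 (adjusted p = 0.165, z test). Brain, heart, kidney and liver came from the same mice, so this z is approximate.

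Among H3 genes, H3c8 rose in spleen. It encodes the replication-dependent form of H3, the histone with the most studied tail modifications, and its upstream stretch above holds 3 CCAAT boxes and no match to the other motifs. The authors' deposited spleen table gave a mean of 58.9 and a log2 fold change of 6.94 ± 1.43 (4 against 4 mice, adjusted p = 0.00272, DESeq2). These values imply about 0.953 in WT and 117 in deficient mice, so nearly all of its tags were in deficient libraries. How many of the 4 deficient mice carried them cannot be read from a mean. In the other authors' deposited tables its mean was at most 0.938. The adjusted p over all alternatives ran from 2.24e-06 to 0.00394.

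H3c15 was 3.71 ± 1.43 in spleen (adjusted p = 0.514) and 6.08 ± 2.68 in kidney (adjusted p = 0.296) in the authors' deposited tables by DESeq2. Its values in brain-named, heart and liver-named were 0.42 ± 0.74, 0.49 ± 1.59 and 0.33 ± 0.86 in the authors' deposited tables. All 5 were positive and none passed. H3c2 and H3c10 were given no p in the authors' deposited spleen table, H3c2 with a log2 fold change of 21.9 ± 3.39 from a mean of 13.5. With an implied WT mean near 0, that value is no measure of a fold.

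H4 genes gave too few tags for a firm statement. Their highest mean in any authors' deposited table was 40.3, for H4c8 in heart, with a log2 fold change of 0.71 ± 0.52 (adjusted p = 0.703, DESeq2). H4c9 was 2.26 ± 1.14 in heart from a mean of 7.17 and -0.46 ± 0.78 in spleen from a mean of 30.6 in the authors' deposited tables. No H4 gene had an unadjusted p under 0.05 but H4c9 in heart, by DESeq2.

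Over all members the middle of the fold changes lay above 0 in 4 tables. The median log2 fold change of members with a p was 0.74 in brain-named (34 of 51 positive), 0.52 in heart (32 of 50), -0.09 in kidney (17 of 43), 0.49 in liver-named (35 of 54) and 0.87 in spleen (37 of 49). The medians over all genes were 0.00, -0.03, 0.00, -0.10 and -0.07. Restricted to a mean of at least 20, the member medians were 0.99 (19 of 21), 0.22 (13 of 21), -0.07 (8 of 20), 0.46 (15 of 22) and 0.92 (23 of 29). Over all genes so restricted the medians were 0.041, 0.029, -0.004, -0.040 and 0.037, with 53.3%, 52.2%, 49.7%, 47.6% and 52.5% positive. These are descriptions without a test, since members share sequence and 4 of the tables share mice. The median standard error over genes with a mean of at least 20 was 0.45, 0.48, 0.62, 0.55 and 0.63.

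Among 50 factors acting on histone mRNA, Pou2f1 alone passed, as 1 of 43 tested in the brain-named table, where 0.414% of all tested genes did. Its log2 fold change was 2.34 ± 0.62 (adjusted p = 0.0485, DESeq2) from a mean of 391 in the authors' deposited table. That call was lost when p-values were adjusted over every gene with a p (0.0889, DESeq2) and under the rescaling that ended the H1f3 call (0.281). Its values in the other authors' deposited tables lay between -0.61 and 0.82. At an unadjusted p under 0.05 by DESeq2, 4 of 47 with a p were counted in brain-named, 2 of 47 in heart, 3 of 47 in kidney, 2 of 47 in liver-named and 0 of 46 in spleen, all of them higher. Of all genes, 6.82%, 6.73%, 7.74%, 7.33% and 4.22% were counted either way, in the same order. As higher, 4.90%, 3.03%, 4.08%, 3.08% and 1.84% of all genes were counted. The median over the list was 0.19 in brain-named and 0.11 to 0.16 in the others. Slbp was -0.27 ± 0.43, 0.69 ± 0.59, -0.45 ± 0.51, -0.23 ± 0.43 and 0.89 ± 0.59 in the authors' deposited tables, in table order. Npat, which activates histone transcription at the start of S phase, was 2.79 ± 0.99 in kidney (adjusted p = 0.13, DESeq2) in the authors' deposited table. Of 40 S phase genes, 32 were tested in kidney and 2 passed, where 2.07% of all tested genes did. In the authors' deposited kidney table Kif11, a mitotic motor, rose by 3.07 ± 0.60 on the log2 scale (adjusted p = 1.22e-04, DESeq2). Bub1b, a spindle checkpoint kinase, rose there by 3.61 ± 0.99 (adjusted p = 0.0216, DESeq2, and 0.107 under that rescaling). No histone gene passed in kidney. Among 22 replication-independent histone genes none passed in any table by DESeq2, with 0 or 1 per table at an unadjusted p under 0.05.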

How the data were processed

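Uncapped poly(A) RNA of 32 libraries was sequenced as short tags, per the labels' protocols. Per the submitters' processing notes, counting used featureCounts, Subread 2.0.3 and DESeq2 with the build GRCm39. The aligner, annotation, handling of tags with several matches and DESeq2 model are not given in the sources used here. Each gene's deposited mean is a signal: the authors' normalized count, averaged over an organ's libraries. The deposited fold change and standard error are on the log2 scale, and the deposited Wald statistic is a score equal to their quotient, a relation checked for all genes. The p-value and its adjusted form are used as the authors gave them. The 1 nameless row per table was left out.

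The members and gene lists were chosen with earlier results of these data known. Calls use the authors' adjusted p at 5% over the whole table, with no new fit. Levels are means in ppm of a table's sum, and implied group means assume equal group sizes. The z test for differences between tables was tried on simulated heart and spleen values, drawn independently for 30522 genes. A log2 difference of 5 was given to 200 genes of low standard error. Of these 93% were recovered, and 5.58% of the calls were false. That trial does not cover tables that share mice or smaller differences. Named were members that passed, the 5 of highest mean and the 3 of largest Wald statistic per table, members at 0 in every table, and list members that passed; H2ac7, H2ac11, H2bc11, H2bc12, H2bc21, H1f5, H3c2, H3c10, H4c8, H4c14, Ms4a1, Alas2, Slbp, Npat, Mcm6, Cdk1 and H2aj fall outside that rule and were chosen after their values were seen. Scripts ran in Python 3.11.15 (pandas 2.3.3, numpy 2.4.6, scipy 1.17.1; plots in matplotlib 3.10.9).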

Additional observations from a re-analysis of the deposited data

How the results depend on the processing

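The number of histone genes passing was unchanged in 30 of 35 settings (thresholds of 1% and 10%, adjustment across all genes that have a p, means of 20 or more, an absolute log2 change of 1 or more and 2 rescalings of the statistic). Part of this was fixed in advance. Where no member passed at 5%, none can pass at 1% or with the limit on the log2 change. That limit could also not remove H1f3 (1.29) or H3c8 (6.94). When the deposited statistic was divided by its robust spread over all genes with a p, 2 members passed in the brain-named table (H2ac20 and H2bc15), 1 in kidney (H1f3) and 2 in spleen (H2bc22 and H3c8). That spread is below 1 in every table, which lowers each p. In heart 0 passed at 1%, and 0 under the other rescaling, an alternative chosen after seeing the data. It used the spread over tested genes with a mean of at least 20. By the DESeq2 statistic so rescaled, the adjusted p was 0.152 for H1f3 in heart, 0.107 for Bub1b in kidney and 0.281 for Pou2f1 in brain-named. That spread was 1.14, 1.18, 1.14, 1.22 and 0.937 in table order, brain-named to spleen. The median fold changes kept their sign in all 15 settings. Summed levels moved in 5 of 15: brain-named to 220.9 without the 10 genes of highest mean, 226.3 by median ratios and 46.9 without H2bc4, heart to 82.8 and kidney to 126.8 without H2bc4. No paired analysis was possible because the deposited comparisons carry no values per library, and for the same reason no replicate was left out. Whether short tags are unique to a member was not run, since no transcripts were used here. Low counts limit H3 and H4: 7 of 12 and 9 of 12 genes stayed under a mean of 20 in every table.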
